A study of Homo sapiens with 8 samples.

Results

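The zinc finger genes of chromosome 19 were taken as the protein-coding genes of that chromosome in GRCh38 whose symbol is ZNF followed by digits and an optional letter. There were 246 of them, among 1410 protein-coding genes of chromosome 19 and 19817 on chromosomes 1 to 22 and X. They were described in neural progenitors derived from the human embryonic stem cell line H9, an established line. The stem cells had been given a lentivirus before they were turned into progenitors, either a control (NC) or a virus carrying an shRNA against KDM2A (sh1 or sh4), followed by puromycin selection. KDM2A was precipitated from NC cells, and dimethylated lysine 36 of histone H3 (H3K36me2) from NC, sh1 and sh4 cells. Each of these 4 chromatin immunoprecipitation (ChIP) libraries is the only one of its group, so no value below has a replicate spread and no test between groups could be made. Peak lists hold no expression, and the labelled cell type was therefore not checked against its markers.

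Most ZNF genes of chromosome 19 encode KRAB zinc finger proteins, in which a row of C2H2 fingers reads a DNA sequence and a KRAB domain recruits the corepressor TRIM28. TRIM28 in turn brings in SETDB1, a methyltransferase for lysine 9 of histone H3, and this machinery keeps many transposable elements silent in stem cells. The genes arose by tandem duplication and lie in clusters of paralogues. KDM2A removes methyl groups from H3K36me2 and binds unmethylated CpG through a CXXC zinc finger, for which CpG islands at gene starts are the best known sites.

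KDM2A peaks crowded the starts of these genes. Of the 216 members whose start is listed, 125 (57.9%, Wilson 95% interval 51.2 to 64.3) had a KDM2A peak within 500 bp of the start. Among the 969 other protein-coding genes of chromosome 19 with a listed start the share was 35.5% (344 genes, 32.6 to 38.6), and among all 15811 protein-coding genes with one it was 39.3%. The 500 bp window was chosen after these values were seen. Within 2 kb of the start, a planned window, the contrast was smaller, at 77.3% of members against 67.1% of the other chromosome 19 genes. Within 500 bp of the far end, where the exon for the finger array usually lies, the order was the other way round, with 40 of 216 members (18.5%, 13.9 to 24.2) against 30.9% of the other genes and 23.4% of all genes. The share of all genes lies inside the members' interval. ZNF genes of other chromosomes had, within 500 bp, 43.0% at starts (36.5 to 49.7) and 21.5% at far ends (16.5 to 27.5). H3K36me2 regions were called on 4 of 246 members in NC (1.63%), 0 in sh1 and 2 in sh4 (0.813%). The other chromosome 19 genes were close to this, at 1.63%, 0.43% and 0% in NC, sh1 and sh4. All protein-coding genes were at 20%, 16.2% and 15.4%.

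The sequences before 5 of the starts are given first, because CpG is what the CXXC finger of KDM2A reads. Each is the 250 bases before the start in RefSeq (GRCh38.p14), written 5′ to 3′ on the strand of the gene, with every CpG in capitals. ZNF470, ZNF613 and ZNF285 are the 3 members with the most bases of this stretch under a KDM2A peak with a false discovery rate (FDR) under 0.05. The other examples were picked for a contrast in CpG. ZNF865 has the most CpG of the members with no peak within 2 kb of the start, and ZNF429 the fewest of the members with a peak over the stretch.
ZNF470: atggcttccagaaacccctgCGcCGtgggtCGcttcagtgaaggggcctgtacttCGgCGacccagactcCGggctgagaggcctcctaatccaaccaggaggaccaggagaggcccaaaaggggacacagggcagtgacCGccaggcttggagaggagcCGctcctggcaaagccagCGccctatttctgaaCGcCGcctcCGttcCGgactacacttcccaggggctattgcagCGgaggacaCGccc
ZNF613: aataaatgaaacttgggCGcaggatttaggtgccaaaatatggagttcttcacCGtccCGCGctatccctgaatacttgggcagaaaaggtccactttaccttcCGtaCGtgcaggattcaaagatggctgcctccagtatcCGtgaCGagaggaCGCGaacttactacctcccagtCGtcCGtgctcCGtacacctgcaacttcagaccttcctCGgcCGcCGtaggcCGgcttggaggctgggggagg
ZNF285: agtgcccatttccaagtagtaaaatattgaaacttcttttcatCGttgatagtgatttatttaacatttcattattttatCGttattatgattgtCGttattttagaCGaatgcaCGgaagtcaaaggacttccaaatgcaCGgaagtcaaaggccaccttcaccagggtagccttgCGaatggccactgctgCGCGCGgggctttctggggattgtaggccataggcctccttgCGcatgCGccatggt
ZNF865: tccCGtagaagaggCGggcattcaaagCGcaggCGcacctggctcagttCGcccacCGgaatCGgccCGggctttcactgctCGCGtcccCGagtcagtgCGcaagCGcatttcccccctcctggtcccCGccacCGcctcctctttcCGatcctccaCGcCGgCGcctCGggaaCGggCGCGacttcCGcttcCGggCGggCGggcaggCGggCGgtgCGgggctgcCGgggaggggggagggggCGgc
ZNF429: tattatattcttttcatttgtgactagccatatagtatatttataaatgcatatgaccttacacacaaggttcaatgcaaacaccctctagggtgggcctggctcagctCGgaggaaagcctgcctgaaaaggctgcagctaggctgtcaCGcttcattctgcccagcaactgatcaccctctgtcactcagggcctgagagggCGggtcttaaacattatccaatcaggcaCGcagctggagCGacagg

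The ZNF470 stretch (chr19:56567218-56567467, plus strand) holds 15 CpG, and 162 of its bases lie under a peak (56567306 to 56567634) whose fold over local background was 3.63. The ZNF613 stretch (chr19:51927222-51927471, plus strand) holds 17 CpG, and 145 bases lie under a peak (51926612 to 51927366) of 3.68-fold. The ZNF285 stretch (chr19:44401609-44401858, minus strand) holds 12 CpG, and 110 bases lie under a peak of 3.79-fold. The ZNF865 stretch (chr19:55605397-55605646, plus strand) holds 32 CpG without a peak, while the ZNF429 stretch (chr19:21505352-21505601, plus strand) holds 5 CpG and has 187 bases under a weak peak of 2.21-fold (FDR 0.630). The dinucleotide CG reads the same on both strands. It occurred at least once in the 250 bases of 100% of members, 99% of the other chromosome 19 genes and 96.9% of all genes, with medians of 16, 17 and 17.

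Around either end of the gene, with windows of 2 kb to each side, the members did not stand out. A peak overlapped such a window in 217 of 246 members (88.2%, 83.6 to 91.7), beside 88.6% of the other chromosome 19 genes and 84% of all protein-coding genes. The count within 2 kb of the start was 167 of 216 (77.3%) beside 67.1% and 66%, and at the far end 126 of 216 (58.3%) beside 68.1% and 58.9%. A peak at the start and none at the far end was found in 68 members (31.5%) and in 20.4% of the other genes. The reverse was found in 27 members (12.5%) and in 21.5% of the other genes. The 2 ends therefore differed from the other genes in opposite directions, which a count over both ends did not show. No peak anywhere in the gene was found in 9 of 246 members (3.66%) and in 11.7% of the other genes. These last shares were not adjusted for length, and members are longer, with a median of 23.2 kb against 12.7 kb. Genes are not replicates and neighbours can share a peak, so the intervals cover counting error only and no test was made.

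Density per length gave the same picture. Peak midpoints within 500 bp of member starts numbered 128, or 5.93 per 10 kb, against 2.28 per 10 kb at 5 to 10 kb from the same starts. In these densities, and in those of bodies, a peak near 2 starts or in 2 overlapping genes counts for each, and the intervals treat such counts as separate. The ratio was 2.60 (Poisson interval 2.12 to 3.17). It was 1.22 (1.08 to 1.37) for the other genes of chromosome 19, 1.86 (1.46 to 2.35) for the 214 ZNF genes of other chromosomes with a listed start, and 1.86 (1.81 to 1.91) for all genes. At the far ends of members the ratio was 0.766 (0.527 to 1.08), and at those of the other chromosome 19 genes 1.08 (0.948 to 1.22). Leaving out each ZNF cluster in turn gave ratios of 2.45 to 2.76 at the starts. For the 192 members with no other protein-coding start within 2 kb it was 2.47 (1.98 to 3.05).

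**Figure D1:**
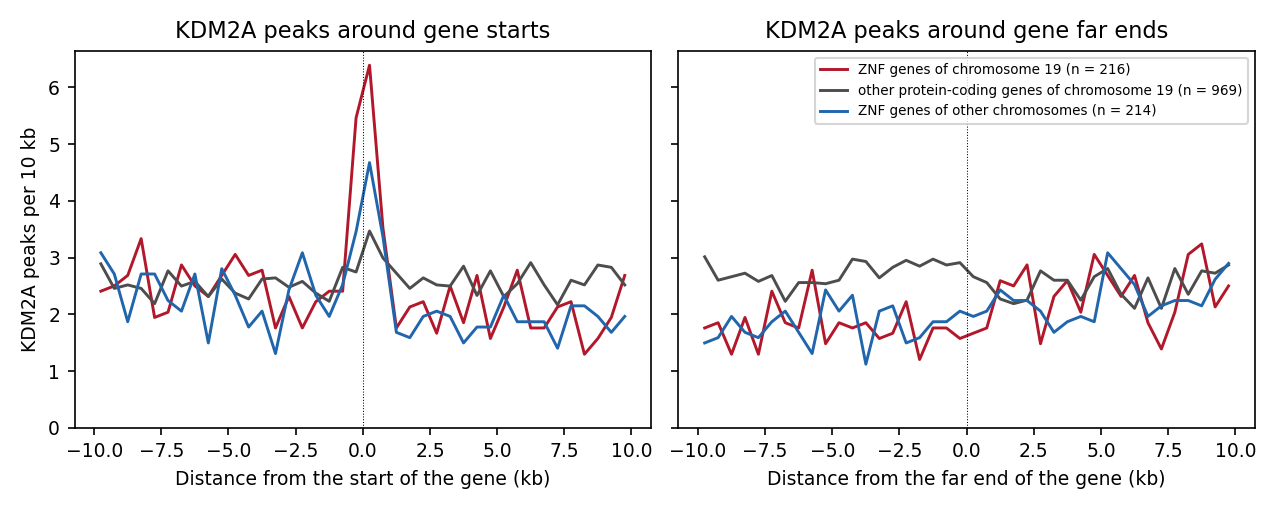
KDM2A peaks per 10 kb (y axis) by distance in kb from gene starts (left) and far ends (right), in bins of 500 bp, positive towards the direction of transcription. The ZNF genes of chromosome 19 (red) reach 6.39 per 10 kb in the first 500 bp after the start and 5.46 in the 500 bp before it, and fall to 1.57 and 1.67 on either side of the far end.

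The rise was narrow. The 500 bp after the start held 69 peaks and the 500 bp before it 59, while the bins from 500 to 1000 bp held 38 downstream and 26 upstream. From 1000 to 1500 bp downstream there were 19. The peaks within 500 bp of member starts were 141 distinct peaks with a median fold of 2.49 over local background and a median pileup of 8 stacked fragments. Peaks in member bodies had a median fold of 2.33 and the same median pileup. The list has no FDR limit, and of its 502659 peaks on chromosomes 1 to 22 and X 3.08% had an FDR under 0.05.

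Peaks with an FDR under 0.05 also lay at the starts. They made up 11 of the 141 distinct peaks (7.80%) within 500 bp of member starts, beside 9 of 370 (2.43%) within 500 bp of the other chromosome 19 starts. The share was 2.23% (27 of 1209) in member bodies and 3.53% over all of chromosome 19. By gene, 12 of 216 members (5.56%, 3.21 to 9.46) had such a peak within 2 kb of the start, beside 2.89% of the other chromosome 19 genes and 3.4% of all genes. For ZNF genes of other chromosomes it was 3.74%. For other genes inside the ZNF clusters described further on it was 5.33% (4 of 75, 2.09 to 12.9), near the share of members. All of these but the 2.89% lie inside the members' interval. Within 2 kb of either gene end the count of members was 11 of 246 (4.47%), beside 6.01% of the other chromosome 19 genes and 5.55% of all genes.

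The 12 members with a start peak under that limit lay in 7 of the clusters described further on, with ZNF780B outside them. ZNF560 (gene 147741, chromosome 19, 9445876 to 9506692) had the highest fold, 4.64, at 9497885 to 9498714 with an FDR of 0.000363 and a pileup of 14. The listed start of ZNF560 lies inside the annotated gene, so this peak counted at the start and not at a gene end. ZNF606 (gene 80095, 57977053 to 58003346) followed with a fold of 4.32, an FDR of 0.000639 and a pileup of 15. Its peak is centred 428 bp downstream of the listed start. ZNF780B (gene 163131, 40028260 to 40056231) had a fold of 4.10 and an FDR of 0.00591, centred 230 bp downstream of its start.

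The remaining start peaks had folds from 3.48 to 3.80. They were at ZNF814 (3.80), ZNF285 and ZNF730 (both 3.79), ZNF584 (3.76), ZNF613 (3.68), ZNF470 (3.63), the neighbours ZNF529 and ZNF382 (both 3.6) and ZNF257 (3.48). ZNF529 and ZNF382 overlap head to head, and a single peak at 36605431 to 36605697 counts for both. The peak of ZNF470 is centred 2 bp from its start. ZNF257, with an FDR of 0.0454, lies just inside the limit.

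At far ends the strongest peaks were fewer. ZNF431 (gene 170959, 21142040 to 21196053) carried a 4.26-fold peak (FDR 0.00217) just past its far end. ZNF234 (gene 10780, 44141554 to 44160313) carried one of 4.06-fold (FDR 0.00422) beyond its far end, and ZNF208 (gene 7757, 21939815 to 22010943) one of 3.79-fold (FDR 0.0214) inside it. These 3 of 216 members (1.39%, 0.473 to 4.0) compare with 3.41% of the other chromosome 19 genes, 2.4% of all genes and 2.80% of the ZNF genes of other chromosomes, all inside the members' interval. The highest fold within 2 kb of an outermost gene end was 4.32 for the members and 8.45 for the other chromosome 19 genes. These maxima come from 483 and 2190 distinct peaks, whose median folds were 2.33 and 2.34.

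At the starts and ends of the members chosen for their known roles no KDM2A peak had an FDR under 0.05. ZNF91, which represses SVA retrotransposons, had no peak within 2 kb of its start and a fold of 1.79 at its far end. ZNF93, a repressor of LINE-1 elements, had a fold of 2.07 at its start. ZNF649, another KRAB zinc finger gene, had a fold of 2.62 at an end. ZNF274, which recruits SETDB1 to the far ends of other ZNF genes, had 2 peaks at its start with folds up to 2.08 and 2 at its far end with folds up to 2.33. ZNF331, an imprinted gene, had folds of up to 2.33 at an end, and ZNF57 of up to 2.59. ZNF536, a large gene whose product restrains neuron differentiation, had 3 peaks at its start with folds up to 2.84. Peaks inside the ZNF536 body are described further on.

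Promoter CpG was compared next, since it differs between the groups. A promoter here is the 250 bases before and 50 bases after the start. The median was 20 CpG in members, 21 in the other chromosome 19 genes and 22 in all genes, with a GC content of 60.0%, 64.0% and 62.7%. Few members had a CpG-poor promoter. Of 216 members 201 (93.1%) held 10 or more CpG, against 73.4% of the other chromosome 19 genes and 72.8% of all genes.

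Within bins of CpG number the share of members with a peak within 500 bp of the start was higher than that of the other chromosome 19 genes in all but the lowest bin. It was 60.5% of 86 members (49.9 to 70.1) against 29.7% (23.8 to 36.5) at 10 to 19 CpG, 62.1% of 87 (51.6 to 71.5) against 38.4% (32.5 to 44.6) at 20 to 29, and 50% of 28 (32.6 to 67.4) against 32.8% (27.5 to 38.6) at 30 or more. At 0 to 9 CpG it was 33.3% of 15 members (15.2 to 58.3) against 39.9% (34.1 to 46.0). Intervals overlapped in the lowest and the highest bin. Among members the median CpG number was 20 both with and without a peak within 500 bp of the start, and the ranges (8 to 49 with a peak, 2 to 40 without) overlapped. Over all protein-coding genes the share rose from 30.7% at 0 to 9 CpG to 45.9% at 30 or more.

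**Figure D2:**
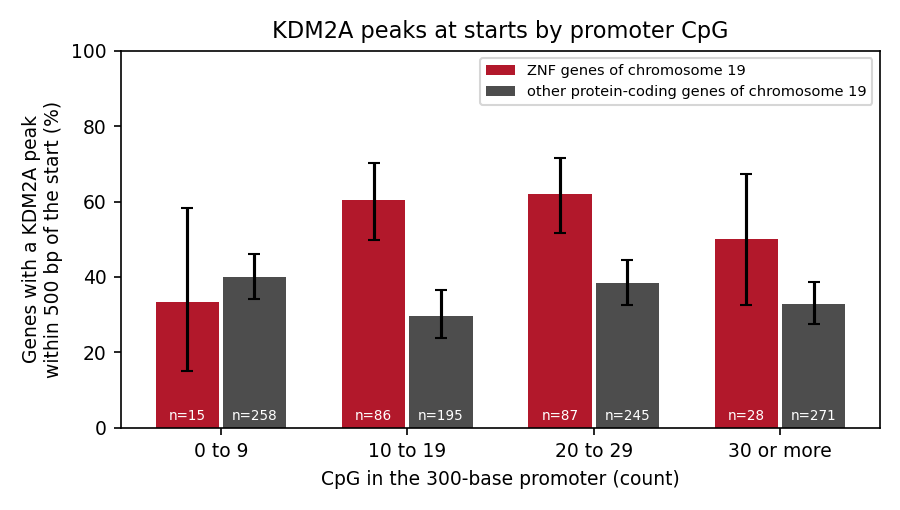
Percent of genes with a KDM2A peak within 500 bp of the start (y axis) by the CpG count of the 300-base promoter (x axis), for ZNF genes (red) and other protein-coding genes (grey) of chromosome 19. Bars are shares with Wilson 95% intervals and the number of genes; members reach 60.5% and 62.1% in the middle bins, where the other genes are at 29.7% and 38.4%.

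Inside the genes KDM2A peaks were sparser in members. Bodies were taken without the 2 kb next to each end, and held 1225 peaks over 6196 kb, or 1.98 per 10 kb (1.87 to 2.09). The other chromosome 19 genes had 2.47 per 10 kb (2.40 to 2.54), ZNF genes of other chromosomes 1.64 and all genes 1.70. In this pooled density members were thus below their chromosome and above the genome. ZNF536 alone held 161 of the 1225 peaks. The median density per gene, over genes with at least 5 kb of body, was 1.75 in members, close to the 1.71 of all genes. It was 2.42 in the other chromosome 19 genes. Members were also longer than the other genes of the chromosome, with a median length of 23.2 kb against 12.7 kb. Between 10 and 50 kb of length the densities were 1.83 and 2.45 per 10 kb.

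Along the gene the density was highest at the start and lowest at the far end in members, and highest at the far end in the others. Genes of at least 10 kb were divided into 10 equal parts from start to far end. The first held 3.01 peaks per 10 kb (2.59 to 3.47) in 190 members and 2.61 (2.39 to 2.85) in 590 other genes. The last held 1.58 (1.28 to 1.92) in members and 2.92 (2.68 to 3.18) in the others. Paralogous finger exons are near-identical in places, and how the authors treated reads that map to several sites is not given in the sources used here. Values at far ends are uncertain to that extent, as are those of any other stretch that paralogues share.

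**Figure D3:**
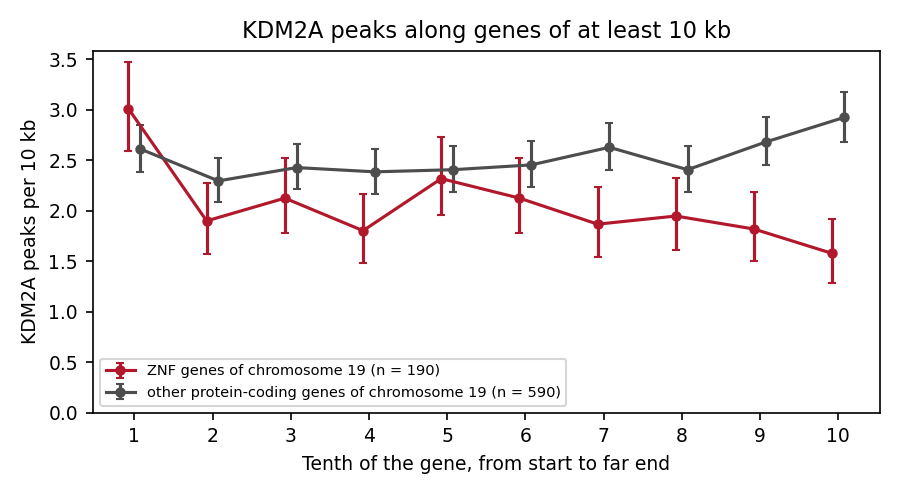
KDM2A peaks per 10 kb (y axis) in each of 10 equal parts of the gene from start to far end (x axis), for ZNF genes (red) and other protein-coding genes (grey) of chromosome 19 of at least 10 kb. Bars are Poisson 95% intervals; members go from 3.01 in the first part to 1.58 in the last, the other genes from 2.61 to 2.92.

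Members differed widely in body density. Of the 221 with at least 5 kb of body, 12 had no body peak, among them ZNF284 and ZNF649. No share for other genes is given here, so this count is not read as a trait of the members. ZNF549 had the highest density, 9.45 per 10 kb, from 9 peaks. ZNF536 held 161 body peaks over 483993 bp, 3.33 per 10 kb, and 4 of its peaks had an FDR under 0.05, with folds from 3.42 to 4.42. ZNF91 held 11 over 86466 bp, or 1.27 per 10 kb. ZNF549 was singled out after its value was seen.

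By position the members formed 10 clusters of at least 5, joined where the gap between neighbours was at most 500 kb. The clusters hold 232 members and 90 other protein-coding genes in 14.4 Mb, and 14 members lie outside them. The largest by length is cluster 4 at 19.7 to 24.1 Mb, with 37 members, only 2 other genes and a median member length of 34.6 kb. The largest by number is cluster 10 at 57.2 to 58.5 Mb, with 43 members of a median of 13.1 kb. Cluster 8 at 51.6 to 53.6 Mb holds 39, cluster 6 at 36.2 to 37.8 Mb 26 and cluster 3 at 11.5 to 12.6 Mb 25.

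The share of members with a peak within 500 bp of the start varied between clusters. It was highest in cluster 3, with 18 of 24 (75.0%), and in cluster 6, with 18 of 25 (72.0%). It was lowest in cluster 9 at 55.5 to 56.7 Mb, with 5 of 14 (35.7%), close to the 35.5% of the other chromosome 19 genes, and next in cluster 8, with 14 of 32 (43.8%). Cluster 9 is also the cluster with the highest median promoter CpG, 29.5, and cluster 4 that with the lowest, 10, where 16 of 29 (55.2%) had such a peak. No test was made between clusters, and the smallest hold 4 or 5 members with a start.

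Peak density over the whole span of a cluster ranged from 1.83 per 10 kb (1.63 to 2.06) in cluster 6 to 3.16 (2.54 to 3.88) in cluster 5 at 34.7 to 35.0 Mb. Over member bodies cluster 4 was lowest at 1.41 per 10 kb. Cluster 6 thus had the sparsest peaks overall and a high share of starts with a peak. All cluster spans together held 2.38 peaks per 10 kb (2.30 to 2.46), and the rest of the gene-bearing chromosome 2.57 (2.52 to 2.62). The 90 other genes inside the clusters had a body density of 2.68 per 10 kb (2.45 to 2.93). A peak lay within 500 bp of 42.7% of their starts (32 of 75, 32.1 to 53.9). Their density lay above that of the members. Their share of starts with a peak lay below that of the members, but the interval overlaps the members' 51.2 to 64.3.

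**Figure D4:**
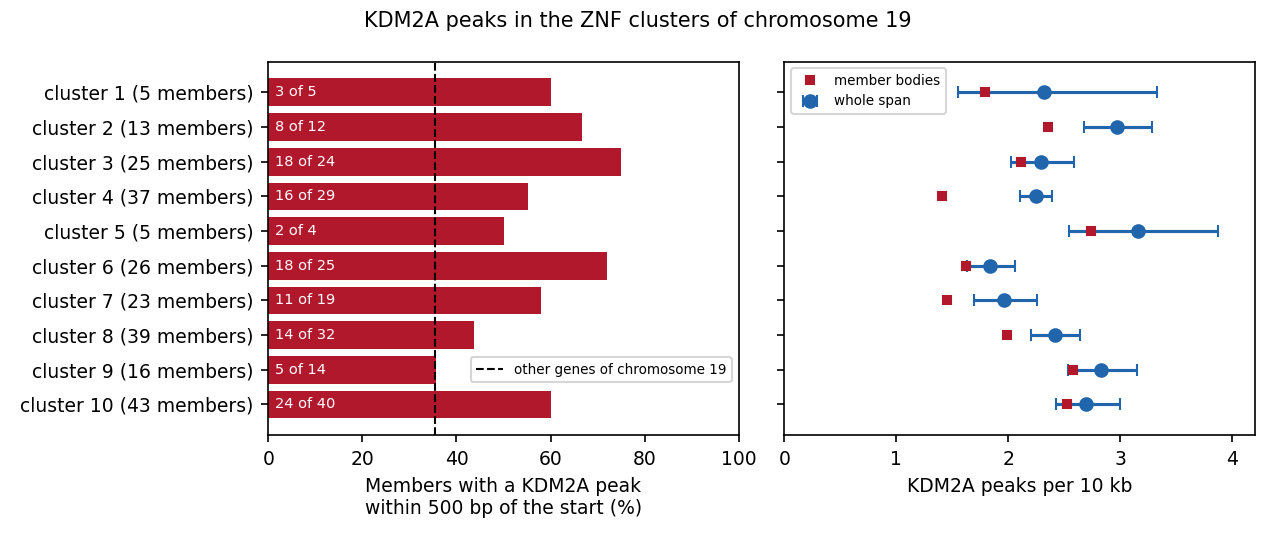
The 10 ZNF clusters in order along chromosome 19 (y axis), with the percent of members that have a KDM2A peak within 500 bp of the start (left) and peaks per 10 kb (right; circles over the whole span with Poisson 95% intervals, squares over member bodies). The dashed line marks the 35.5% of the other chromosome 19 genes, and the lowest cluster, number 9, lies at 35.7%.

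H3K36me2 regions were all but missing from these genes and from the chromosome around them. Any region in the body was found on 4 of 246 members in NC (1.63%), 0 in sh1 and 2 in sh4 (0.813%). Among the other chromosome 19 genes it was 1.63%, 0.43% and 0%, and among all protein-coding genes 20%, 16.2% and 15.4% in NC, sh1 and sh4. ZNF genes of other chromosomes had a region in 37, 24 and 20 of 263, or 14.1%, 9.13% and 7.60%. Members were therefore near their own chromosome in these shares. With only regions above the median fold of the NC list, 4 members (1.63%) and 9 of the other chromosome 19 genes (0.773%) had a region in NC. Chromosome 19 had the lowest share of genes with a region of all 23 chromosomes in NC, with chromosome 22 next at 6.15%.

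**Figure D5:**
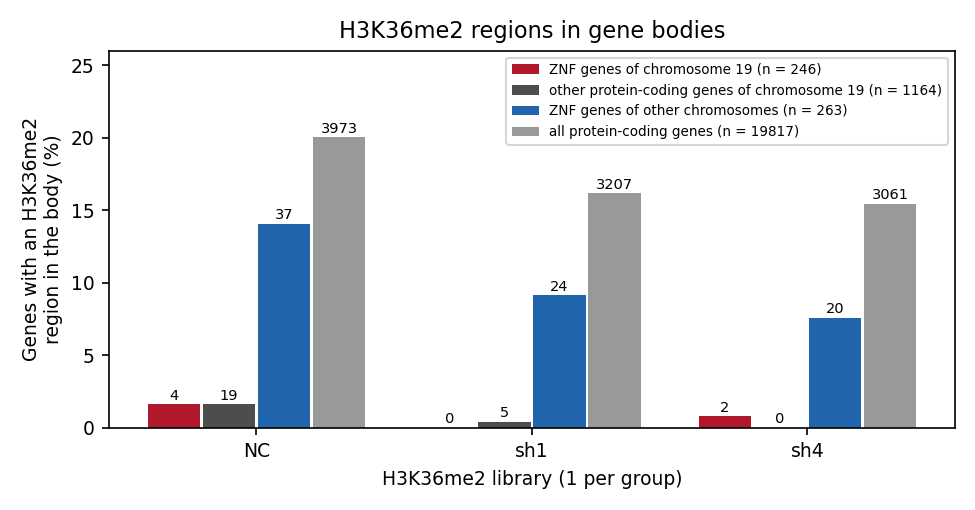
Percent of genes with an H3K36me2 region in the body (y axis) in the NC, sh1 and sh4 libraries (x axis, 1 library each), with the number of genes above each bar. ZNF genes of chromosome 19 number 4, 0 and 2 of 246, while ZNF genes of other chromosomes number 37, 24 and 20 of 263.

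The chromosome held 34 H3K36me2 regions in NC, 6 in sh1 and 6 in sh4, out of 19691, 19501 and 21493. Inside the ZNF cluster spans lay 7 (0.487 per Mb, 0.196 to 1.004), 1 and 2 of them, beside 26 in NC (0.646 per Mb, 0.422 to 0.947), 3 in sh1 and 2 in sh4 over the rest of the gene-bearing chromosome. The median distance from a member to the nearest region was 1422 kb in NC, 5939 kb in sh1 and 4844 kb in sh4. For the other chromosome 19 genes it was 640, 5636 and 4323 kb. A region lay within 100 kb of 21 members in NC (8.54%), 1 in sh1 (0.407%) and 9 in sh4 (3.66%). The shares of the other chromosome 19 genes were 10.8%, 1.89% and 0.515%.

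The 5 members with a region in any library can be given in full. In ZNF284 (gene 342909, 44072159 to 44089613) regions took up 25.2% of the length in NC and 0% in sh1 and sh4. Its region at 44073001 to 44077400 begins shortly after the start and had a fold of 1.90 (1.43 to 2.55), from 145 reads in the immunoprecipitate (IP) and 75 in the input. ZNF284 had a 3.06-fold KDM2A peak (FDR 0.141) just before it, centred 610 bp inside the gene. ZNF675 (gene 171392, 23652801 to 23687212) was covered over 12.8% in NC and 0% in both hairpins, by a region at 23667201 to 23671600 with a fold of 1.63 (1.25 to 2.14; 149 IP and 90 input reads). A 3.45-fold KDM2A peak (FDR 0.0461) lay at 23671909 to 23672188, just beyond that region.

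ZNF506 (gene 440515, 19792711 to 19821750) was the only member with a region in more than 1 library. It was covered over 10.3% in NC, 0% in sh1 and 6.20% in sh4. The NC region at 19809801 to 19812800 had a fold of 1.69 (1.25 to 2.32; 117 IP and 68 input reads), and the sh4 region at 19811001 to 19812800 a fold of 1.91 (1.32 to 2.80; 87 and 45). The sh4 region lies wholly inside the NC region, and the intervals of the folds overlap. ZNF536 was covered over 0.738% in NC and 0% in both hairpins, by a region at 30237201 to 30240800 with a fold of 1.64 (1.21 to 2.23; 120 and 72) that held 4 KDM2A peaks. ZNF560 was covered over 3.29% in sh4 alone, by a region at 9471801 to 9473800 with a fold of 2.12 (1.45 to 3.15; 88 and 41).

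Against NC, coverage was lower in both hairpin libraries for 4 of 246 members (1.63%) and higher in both for 0. The other chromosome 19 genes gave 1.63% (0.773% with regions above the NC median fold, which left the members at 4) and 0%, and all protein-coding genes 12.6% and 4.69%. Both hairpins share the NC library, and a member with 0% in NC could not be lower. Covered length over members was 15.4 kb in NC, 0 in sh1 and 3.80 kb in sh4. With so few regions a difference between libraries at these genes was not detectable beyond a handful of calls.

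The genes that work with KRAB zinc finger proteins were looked at as a list chosen with earlier results of these data known. Of the 14 (among them TRIM28, SETDB1 and the HP1 genes CBX1, CBX3 and CBX5), 13 had a KDM2A peak within 2 kb of either end, beside 84% of all genes, and 0 had one with an FDR under 0.05, beside 5.55%. TRIM28 had a fold of 2.93 and MORC3 the highest, 3.09, while SETDB1 had no peak at an end. H3K36me2 covered 14% of CBX1 and 9.32% of SMARCAD1 in NC and 0% of both in sh1 and sh4, and in sh1 alone 6.91% of CBX5 and 0.34% of PPHLN1. Of 14 zinc finger genes of chromosome 19 with other names (such as ZFP28, ZIM3 and PEG3), 13 had an end peak and 0 one under the FDR limit. The shares of the chromosome 19 genes outside the members were 88.6% and 6.01%. The median of the highest end fold per gene was 3.06, beside 2.61. ZIM2 and PEG3 share a gene end, so a peak there counts for both. H3K36me2 regions lay on 0 of the 14 in any library, beside 1.63%, 0.43% and 0% in NC, sh1 and sh4. Of the neural progenitor markers PAX6, MSI1, SOX1, NES and SOX2, the first 3 had an end peak (folds of 2.94, 2.58 and 3.03), beside 84% of all genes. An H3K36me2 region lay on 0 of 5 in any library, beside 20%, 16.2% and 15.4% of all genes in NC, sh1 and sh4.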

How the data were processed

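Per the labels, IP libraries of H9-derived neural progenitors were sequenced, and peaks were deposited by the authors as 1 list per library. Tools named in the submitters' processing notes are SICER, MACS2 and Bowtie 1.1.2, without roles, and the builds are given as GRCh38 and hg38. Fold enrichment, as deposited, is the linear ratio between IP and background. The deposited p-value and FDR of each region are the authors' own. The deposited score of H3K36me2 regions was not used, and the pileup deposited for each KDM2A peak is a signal counting fragments stacked there. Inputs entered only through the authors' folds.

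H3K36me2 regions lay on a 200 bp grid counted from 0. IP and input reads per region were recovered from fold and p-value under a Poisson model, and 100% of those recovered came out within 0.001 (IP) and 0.01 (input) of whole numbers. The median region held 162 IP and 99 input reads in NC, 151 and 89 in sh1, and 156 and 92 in sh4. The KDM2A list held 504724 peaks, 14175 of them on chromosome 19, and its depth is unknown beyond the pileup. The authors' FDR was used as deposited.

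Gene positions and starts came from RefSeq tables of GRCh38.p14, without genes of alternate or unplaced sequences. Starts are those listed nearest the 5′ end of the gene, and 30 members have none: ZNF559, ZNF763, ZNF506, ZNF253, ZNF738, ZNF676, ZNF729, ZNF98, ZNF99, ZNF728, ZNF30, ZNF571, ZNF221, ZNF155, ZNF223, ZNF233, ZNF114, ZNF473, ZNF649, ZNF480, ZNF610, ZNF600, ZNF28, ZNF888, ZNF665, ZNF524, ZNF471, ZNF211, ZNF552 and ZNF417. For 183 of the 216 others the start lies within 500 bp of the gene end. Coverage is the percent of gene length inside regions.

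Genes were named by rule: ZNF274, ZNF91, ZNF93, ZNF536, ZNF331, ZNF57 and ZNF649, the 8 members with the highest KDM2A fold at an end, and members with the highest coverage or the largest change. All members with an FDR under 0.05 at the start were added later. Members, lists and windows were chosen with earlier results of these data known, and the 500 bp window and the ratio at starts after seeing these values. Python 3.11.15, pandas 2.3.3, numpy 2.4.6 and scipy 1.17.1 were used, and functions were tested on simulated data. Finger counts of the proteins, planned as a sequence feature, were not computed here.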

Additional observations from a re-analysis of the deposited data

How the results depend on the processing

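No paired analysis was possible because each group holds 1 library. The share of members with a KDM2A peak at either end was 76.0% with windows of 1 kb, 17.1% with the 10% of peaks of highest fold, 4.47% with an FDR under 0.05, 77.3% at the start only, 57.9% within 500 bp of it and 58.3% at the far end only. The difference from the other chromosome 19 genes was -0.363 percentage points in the report's setting. It turned to 3.25 with 1 kb windows, 0.321 with the highest folds, 10.2 at starts, 22.4 within 500 bp of starts and 0.926 by peak midpoint. It stayed negative with an FDR under 0.05, at -1.54, and was -9.78 at far ends. For the start the construction of the setting shows why, since the ends differ in opposite directions; for the others the cause was not tested. Body density in peaks per 10 kb was 0.0452 with an FDR under 0.05, 0.195 with the highest folds and 1.83 for genes of 10 to 50 kb, and members relative to the others went from 0.801 to 0.518 under the FDR limit. The density ratio at starts was 13.3 (5.16 to 35.8) with that limit, from 11 distinct peaks counted 12 times because ZNF529 and ZNF382 share one, and 4.78 (2.74 to 8.11) with the highest folds, against 0.824 and 1.14 in the other genes. With at least 10% covered, 0 members had H3K36me2 in sh4, and 2 were lower than NC by 10 points in both hairpins. A gap of 250 kb gave 12 clusters. With regions above the NC median fold, the other chromosome 19 genes with a region in NC, and those lower in both hairpins, went from 19 to 9 each, while both counts of members were 4. For the members, the other settings moved shares, densities and ratios by less than their intervals and counts by less than 1.5 times. Settings at 500 bp, at far ends only, for 10 to 50 kb and for the ratio were chosen after seeing the data. The lists cannot show enrichment below the authors' calling limits, and the depth of KDM2A is unknown.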
